A study of Mus musculus with 12 samples.

Results

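The Polycomb and DNA methylation machinery was taken as a list of 36 genes, found by symbol among the 55359 gene identifiers of an expression matrix of ISOS-1 cells. It comprises 4 core and 5 accessory subunits of Polycomb repressive complex 2 (PRC2), 16 subunits of Polycomb repressive complex 1 (PRC1), the DNA methyltransferases with their partner Uhrf1 (4 genes), the 3 TET dioxygenases and 4 MBD proteins. All 36 were found, and 35 passed the filter of at least 1 TPM in at least 3 of the 12 libraries, which 12836 genes passed in all. Dnmt3b did not pass and was not tested. ISOS-1 is a mouse angiosarcoma line, labelled WT and endothelial, and its mRNA was read by sequencing of transcript 3′ ends (QuantSeq). The libraries fell into 4 groups of 3: SAHA (vorinostat, a histone deacetylase inhibitor) at 1 µM for 24 h, VPA (valproic acid, which also inhibits histone deacetylases) at 2 mM for 36 h, JQ1 (an inhibitor that keeps the BET readers of histone acetylation off chromatin) at 1 µM for 36 h, and the vehicle DMSO, for which the labels used here give no duration. Exposure time and drug therefore cannot be told apart against DMSO, while JQ1 and VPA were matched in time. Separate cultures are not stated for the replicates, and the p-values therefore reflect only how far these libraries spread, possibly for technical reasons.

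PRC2 places methyl groups on lysine 27 of histone H3 through EZH1 or EZH2, and CBX proteins of canonical PRC1 bind that mark, while the RING proteins of PRC1 ubiquitinate histone H2A. DNMT1 copies CpG methylation onto newly made DNA after UHRF1 has recognised the half-methylated sites, DNMT3A and DNMT3B set methylation at new sites, TET enzymes oxidise it, and MBD proteins include readers of it. Both systems keep genes silent through cell division, and several of their genes are known to be transcribed most in dividing cells.

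Expression was taken as TPM, a transcript abundance scaled by gene length, as the authors deposited it, and since TPM keeps no sequencing depth the counting error behind a value is unknown. Tags from 3′ ends do not scale with gene length, so levels of different genes are compared only loosely, and changes of the same gene between groups are the measurement. In bulk RNA, fewer cells of a kind and less RNA per cell cannot be told apart. The libraries listed 13735 to 14799 genes above 0, and mitochondrially encoded genes held 11 to 11.7% of TPM in SAHA, 11.9 to 12.4% in VPA, 14.3 to 15.3% in JQ1 and 11.1 to 11.2% in DMSO. Of 10 blood endothelial markers, 3 were listed at 0 in every library, Cdh5 among them, and only Pecam1, Flt1 and Cd34 reached 1 TPM in any. The summed level of the 10 was 188 to 207 TPM in SAHA, 121 to 155 in VPA, 53.9 to 56.1 in JQ1 and 98.5 to 112 in DMSO. Only 2 of the 10 were tested, and against DMSO they moved in opposite directions with SAHA (log2 −0.44 and 0.90) and VPA (−0.20 and 0.42). With JQ1 both changed below 0 (log2 −0.96 and −0.65). Of the fibroblast markers, 6 of 7 reached 1 TPM, and they summed to 1100 to 1230 TPM in SAHA, 976 to 1050 in VPA, 812 to 843 in JQ1 and 771 to 813 in DMSO. That sum hides opposite changes of single genes with JQ1 against DMSO. Of the 6 tested, 5 changed below 0 and 1 above, from log2 −2.24 to 0.2. At an adjusted p under 0.05 (limma), 2 were lower and 1 higher, where 21.0% of all tested genes were lower and 12.9% higher. Of the other lists, 1 of 4 lymphatic endothelial markers (Pdpn), 1 of 6 leukocyte markers, 1 of 5 epithelial markers (Krt19) and 3 of 5 smooth muscle and pericyte markers reached 1 TPM. The lymphatic markers summed to 107 to 122 TPM in SAHA, 105 to 107 in VPA, 45.8 to 49.1 in JQ1 and 69.1 to 77.6 in DMSO, and the leukocyte markers to 4.03 TPM at most. The epithelial markers summed to 21.9 to 25.4 TPM in SAHA, 25.3 to 35.1 in VPA, 30.4 to 40.3 in JQ1 and 10.8 to 12.9 in DMSO. The smooth muscle and pericyte markers summed to 34.9 to 40.5 TPM in SAHA, 43.5 to 52.8 in VPA, 20.0 to 27.4 in JQ1 and 49.8 to 61.3 in DMSO. The part of these differences in the results was not tested.

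Under DMSO, the maintenance methyltransferase Dnmt1 (176 ± 7.48 TPM, SD, n = 3) and the PRC2 catalytic subunit Ezh2 (137 ± 14.9) stood at percentiles 94.7 and 93.3 of the tested genes. The PRC2 subunit Suz12, the PRC1 subunit Scmh1 and the MBD protein Mbd3 also averaged 50 TPM or more, 10 members lay between 10 and 50 TPM, 15 between 1 and 10, and 6 below 1. The paralogs of the abundant enzymes were scarce. Ezh1 averaged 2.75 ± 0.735 TPM and Dnmt3a 2.64 ± 1.47 TPM in DMSO, while Dnmt3b was listed at 0, 0 and 0.15 TPM.

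JQ1 changed 13 of the 35 tested members against DMSO, 10 of them lower and 3 higher, at an adjusted p under 0.05 (limma, Benjamini-Hochberg over all tested genes). That share of 37.1% lay close to the 33.9% of all tested genes called in the same comparison. Lower calls made up 28.6% of the members, against 21.0% of all genes, and higher calls 8.57%, against 12.9%. The median log2 change was −0.33 over the members and −0.07 over all tested genes. The lower members were Uhrf1, Phf19, Scmh1, Bmi1, Dnmt1, Ezh2, Eed, Phc2, Mbd3 and Suz12, and the higher ones Cbx7, Cbx8 and Phc3. Against VPA, given for the same time, JQ1 changed 13 members, 11 lower and 2 higher, where 33.2% of all genes were called (22.9% lower and 10.3% higher). With SAHA 2 members were lower than DMSO, Bmi1 and Mbd3, where 5.19% of all genes were called (3.09% higher and 2.10% lower). With VPA 1 member was lower, Bmi1, where 4.27% were called (2.95% higher and 1.32% lower). Neither share stood out from its background, at 5.71% and 2.86% of the members. The 3 comparisons with DMSO share the same 3 DMSO libraries, and JQ1 against VPA uses the JQ1 and VPA libraries again.

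**Figure D1:**
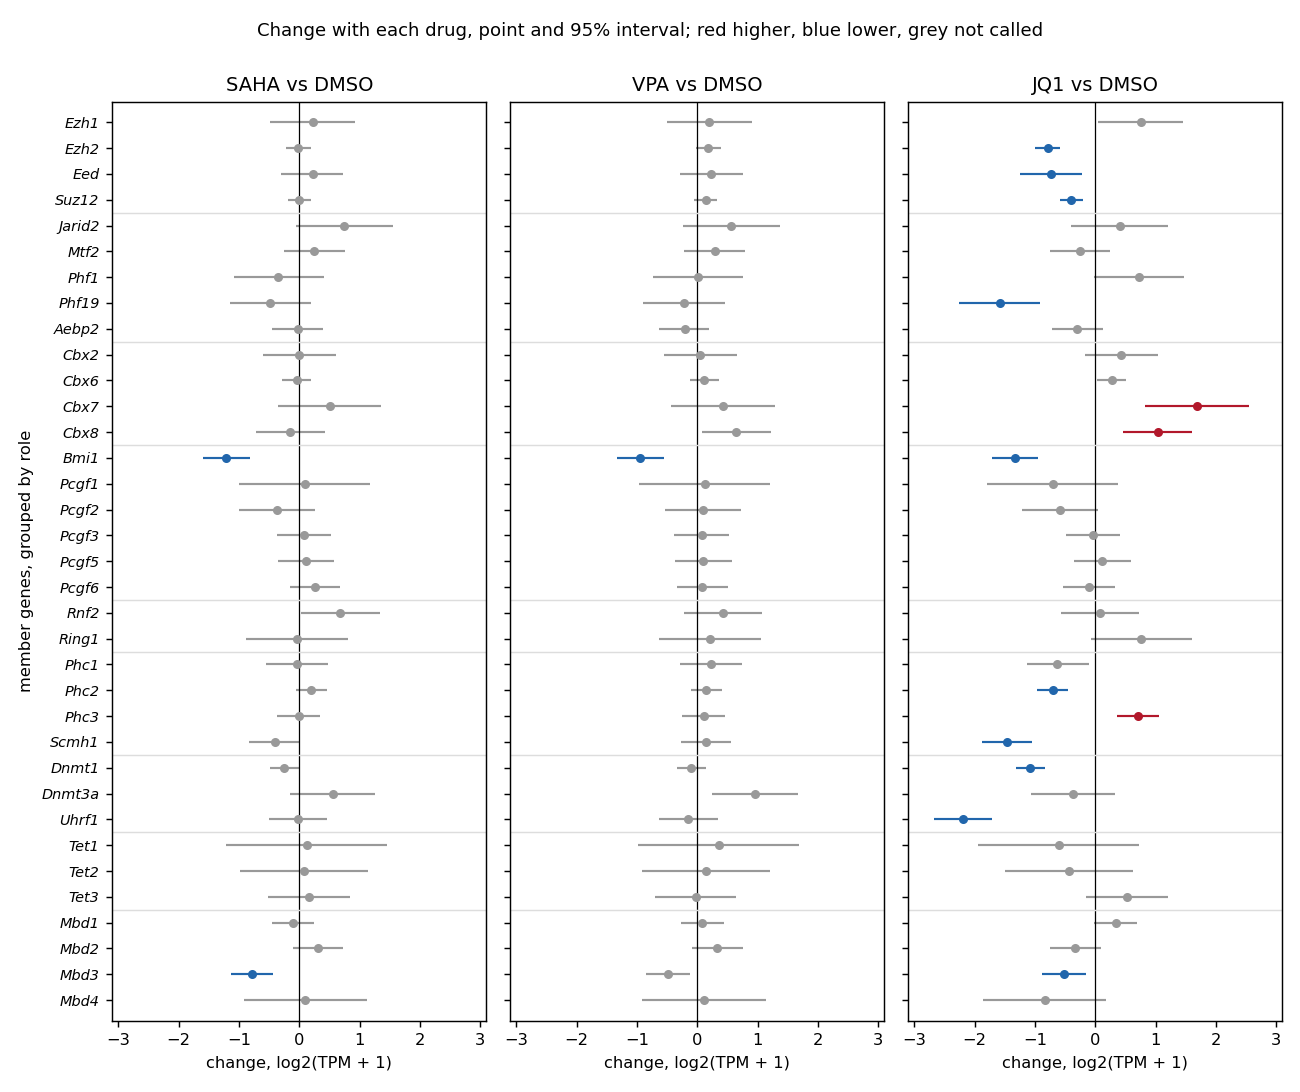
Log2 changes of the tested members in each drug against DMSO on the log2(TPM + 1) scale, as points with 95% intervals from limma, red where called higher, blue where called lower and grey where the adjusted p was 0.05 or more. JQ1 spreads the members between −2.20 (Uhrf1) and 1.69 (Cbx7), while most intervals for SAHA and VPA span 0 and Bmi1 is the member called lower with all 3 drugs.

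Promoter sequence was searched as a description of the members. RefSeq (GRCm38.p6) gave promoters for 32 of the 36 members, and the 250 bases before each start were searched on both strands for the E2F words TTTCCCGC, TTTCGCGC, TTTGCCGC and TTTGGCGC. E2F factors are known to drive replication genes in dividing cells. The words were found in 4 members, Suz12, Phf19, Uhrf1 and Dnmt1, for Dnmt1 in 1 of its 3 promoters and inside an annotated exon of the gene, and in 2.16% of 27025 genes (1.86% of 32851 promoters of that length). All 4 were among the 10 members lower with JQ1, and none of the 3 higher members held one. The E-box CACGTG, a site of MYC-family proteins, was found in 7 of the 32 members, in 2 of the 10 lower ones (Bmi1 and Phc2) and 2 of the 3 higher ones (Cbx8 and Phc3), against 6.86% of all genes. The richest promoter of a member held a median of 22 CG dinucleotides, against 6 over all genes, and the part of this richness in the matches was not tested. Shown are the 3 windows whose E2F match lies before any annotated exon of the gene, and that of Bmi1, the member called with all 3 drugs, all chosen after the values were seen. They run 5′ to 3′ on the gene's strand up to the start or the first annotated exon, with the matched word in capitals, and GCGGGAAA is TTTCCCGC read on the other strand. Uhrf1 lies on the plus strand at chr17:56304063-56304312, Phf19 on the minus strand at chr2:34914027-34914226, Suz12 on the plus strand at chr11:79992856-79993105, and Bmi1, with the E-box, on the plus strand at chr2:18676768-18677017 (GRCm38.p6).
Uhrf1: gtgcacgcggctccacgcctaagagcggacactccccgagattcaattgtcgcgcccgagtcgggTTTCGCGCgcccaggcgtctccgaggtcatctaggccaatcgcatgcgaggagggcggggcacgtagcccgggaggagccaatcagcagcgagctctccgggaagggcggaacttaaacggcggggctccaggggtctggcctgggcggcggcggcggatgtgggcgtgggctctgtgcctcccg
Phf19: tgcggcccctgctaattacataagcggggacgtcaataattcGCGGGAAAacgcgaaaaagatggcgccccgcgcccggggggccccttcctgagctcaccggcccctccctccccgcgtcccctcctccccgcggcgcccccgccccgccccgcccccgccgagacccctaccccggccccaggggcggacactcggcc
Suz12: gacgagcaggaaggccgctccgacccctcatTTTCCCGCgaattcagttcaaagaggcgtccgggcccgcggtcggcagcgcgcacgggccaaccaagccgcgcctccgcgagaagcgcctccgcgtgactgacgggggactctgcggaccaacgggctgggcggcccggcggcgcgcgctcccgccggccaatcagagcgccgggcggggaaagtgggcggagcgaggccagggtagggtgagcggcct
Bmi1: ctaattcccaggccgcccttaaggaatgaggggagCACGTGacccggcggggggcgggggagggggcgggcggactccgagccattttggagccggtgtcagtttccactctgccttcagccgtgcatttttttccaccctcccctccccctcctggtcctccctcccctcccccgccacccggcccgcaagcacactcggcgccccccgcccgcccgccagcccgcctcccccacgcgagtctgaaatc
A match describes the letters and is no evidence of binding.

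The DNA methylation maintenance pair fell with JQ1. Uhrf1, which carries the E2F word shown above, was listed at 16.7, 17.4 and 18.5 TPM in SAHA, 14.4, 17.4 and 16.3 in VPA, 1.92, 4.99 and 2.93 in JQ1, and 17.1, 18.5 and 17.8 in DMSO. The 3 JQ1 libraries lay far below the other 9, whose values overlapped across groups. Its log2 change was −2.20 (SE 0.219, adjusted p = 1.79e-05) with JQ1, the largest fall among the members, and the JQ1 mean was 18.4% of the DMSO mean. Dnmt1 stood at 141, 137 and 167 TPM in SAHA, 192, 150.4 and 153 in VPA, 89.0, 76.1 and 84.6 in JQ1, and 177, 183 and 168 in DMSO. All JQ1 values lay below all others, and the 3 SAHA values lay below the DMSO range. The log2 change of Dnmt1 was −1.08 (SE 0.110, adjusted p = 2.15e-05) with JQ1 and −0.25 (adjusted p = 0.240) with SAHA. Against VPA the log2 change with JQ1 was −2.05 for Uhrf1 (adjusted p = 3.08e-05) and −0.97 for Dnmt1 (adjusted p = 4.63e-05).

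The de novo enzymes were scarce and gave no call against DMSO. Dnmt3a had 4.42, 4.76 and 3.0 TPM in SAHA, 5.63, 7.16 and 4.35 in VPA, 1.99, 1.52 and 1.44 in JQ1, and 1.05, 3.95 and 2.91 in DMSO. The VPA libraries lay above all DMSO libraries, and the JQ1 values lay inside the DMSO range. Neither difference from DMSO passed the test (log2 0.96, adjusted p = 0.131 for VPA, and −0.37 for JQ1), whereas JQ1 was lower than VPA by a log2 change of −1.33 (SE 0.319, adjusted p = 0.00777). Dnmt3b was listed at 1.54, 2.01 and 0.21 TPM in SAHA, 0.20, 0.63 and 0.73 in VPA, 0.14, 0.21 and 0 in JQ1, and 0, 0 and 0.15 in DMSO. It reached 1 TPM in 2 SAHA libraries only and was not tested.

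No TET gene passed in any comparison. Tet1 was listed at 1.60, 0.05 and 0.67 TPM in SAHA, 0.70, 3.32 and 0 in VPA, 0 in all 3 JQ1 libraries, and 0, 2.53 and 0 in DMSO. Tet2 had 1.05, 3.17 and 1.10 TPM in SAHA, 1.92, 3.73 and 0.50 in VPA, 1.11, 0.82 and 0.61 in JQ1, and 1.40, 0.51 and 3.19 in DMSO. Tet3 had 3.48, 1.94 and 3.71 TPM in SAHA, 1.76, 2.85 and 2.90 in VPA, 4.91, 4.5 and 3.1 in JQ1, and 3.07, 3.64 and 1.36 in DMSO. The replicates of these genes spread widely, and each treated group overlapped with DMSO.

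Among the MBD genes, Mbd3, a subunit of the NuRD complex that has largely lost the binding to methylated DNA, had 39.1, 45.1 and 30.9 TPM in SAHA, 51.0, 48.3 and 41.3 in VPA, 44.4, 55.8 and 38.9 in JQ1, and 70.1, 59.6 and 69.1 in DMSO. Every treated library lay below every DMSO library. The log2 change was −0.79 (SE 0.163, adjusted p = 0.0200) with SAHA, −0.52 (adjusted p = 0.0297) with JQ1 and −0.49 (adjusted p = 0.129) with VPA, which did not pass. The SAHA call was lost without SAHA replicate 1 or 3 or DMSO replicate 1 or 3 (adjusted p up to 0.0718). The JQ1 call was lost without JQ1 replicate 1 or 3 or DMSO replicate 1 or 3 (adjusted p up to 0.111). Mbd2, a reader of methylated CpG, had 14.5, 13.1 and 12.4 TPM in SAHA, 15.5, 15.4 and 10.3 in VPA, 6.59, 9.23 and 8.96 in JQ1, and 10.6, 11.9 and 9.20 in DMSO. It was lower with JQ1 than with VPA (log2 −0.66, adjusted p = 0.0198) and passed in no comparison with DMSO, where JQ1 and DMSO values overlapped. That call was lost without JQ1 replicate 1 or VPA replicate 1 or 2, with adjusted p up to 0.0777. Mbd1 (4.44 to 7.49 TPM over all libraries) and Mbd4 (1.11 to 7.65), a thymine glycosylase, passed nowhere.

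The PRC2 core fell with JQ1 except for Ezh1. Ezh2 had 139, 137 and 127 TPM in SAHA, 155, 139 and 171 in VPA, 79.3, 76.3 and 78.6 in JQ1, and 153, 125 and 131 in DMSO. Suz12, which stabilises the complex, had 75.8, 84.5 and 80.0 TPM in SAHA, 92.3, 85.7 and 86.0 in VPA, 60.9, 65.7 and 55.1 in JQ1, and 82.4, 82.7 and 74.4 in DMSO. Eed, which reads the histone mark, had 50.9, 44.8 and 51.4 TPM in SAHA, 70.7, 32.3 and 52.7 in VPA, 23.7, 22.8 and 28.3 in JQ1, and 51.1, 37.4 and 38.5 in DMSO. For all 3 genes each JQ1 library lay below each of the other 9, and SAHA and VPA overlapped with DMSO except for Suz12 in VPA, where all 3 values lay above the DMSO range without passing the test. The log2 changes with JQ1 against DMSO were −0.79 for Ezh2 (SE 0.0940, adjusted p = 6.72e-05), −0.73 for Eed (SE 0.234, adjusted p = 0.0314) and −0.40 for Suz12 (SE 0.0870, adjusted p = 0.00467). Against VPA they were −0.97, −0.97 and −0.54 in the same order, and all 3 passed. The Eed call against DMSO was lost without JQ1 replicate 1 or 2 or DMSO replicate 1 or 3, with adjusted p up to 0.113.

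Ezh1, the paralog of Ezh2 that predominates in resting cells, had 1.96, 3.67 and 4.85 TPM in SAHA, 3.06, 2.81 and 4.0 in VPA, 5.99, 3.17 and 7.43 in JQ1, and 3.59, 2.46 and 2.21 in DMSO. Its JQ1 libraries included the highest values, but 1 lay inside the DMSO range, and the log2 change of 0.76 did not pass (adjusted p = 0.0928). Without JQ1 replicate 2 it was 1.05 with an adjusted p of 0.0289. Ezh2 made up 93.0, 96.0 and 91.4% of the summed TPM of the pair in JQ1 and 97.7, 98.1 and 98.3% in DMSO. These shares use TPM of 2 genes with different lengths, and their shift between groups is a description.

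Of the accessory subunits of PRC2, Phf19, which helps PRC2 to reach CpG islands and holds an E2F word, had 4.16, 4.45 and 2.38 TPM in SAHA, 5.63, 4.89 and 3.12 in VPA, 0.76, 1.22 and 1.45 in JQ1, and 4.49, 8.38 and 3.98 in DMSO. Its JQ1 values were the lowest 3 of the 12. The log2 change was −1.58 against DMSO (SE 0.307, adjusted p = 0.00214) and −1.36 against VPA (adjusted p = 0.00546). The other 4, Jarid2, Mtf2, Phf1 and Aebp2, passed in no comparison. They spanned 2.56 to 10.8 TPM (Jarid2), 15.8 to 36.6 (Mtf2), 0.86 to 5.76 (Phf1) and 10.5 to 18.2 (Aebp2) over all libraries. Exons of Mtf2 overlap those of Tmed5 on the other strand, which was itself lower with JQ1 (log2 −0.84), and whether the counting used strand is not given in the sources used here. Exons of Phf1 overlap those of the far more abundant Cuta on the other strand (mean 78.9 TPM). In all, 12 members have an exon that overlaps another gene.

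**Figure D2:**
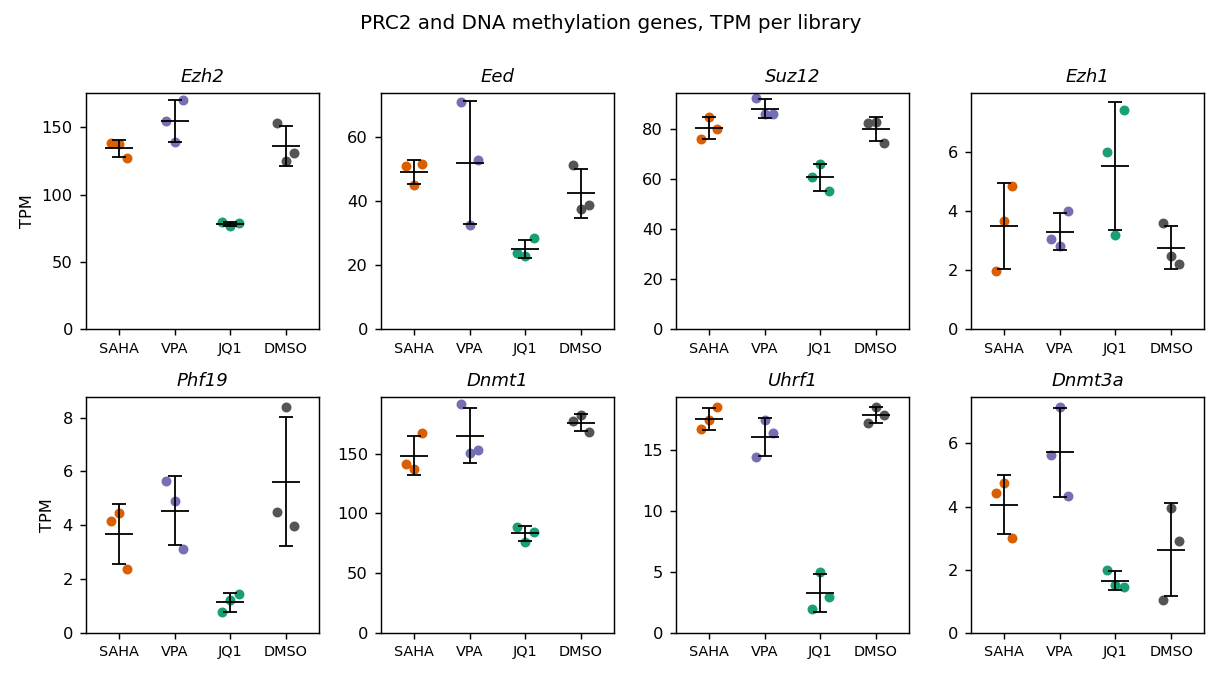
TPM per library (points) of 8 PRC2 and DNA methylation genes in the 4 groups, with the mean and SD of n = 3 as bars, each panel on its own linear axis from 0. The JQ1 points of Ezh2, Eed, Suz12, Phf19, Dnmt1 and Uhrf1 lie below all others, while those of Ezh1 reach 7.43 TPM and the highest Dnmt3a value is in VPA.

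Bmi1 was the member that fell with every drug. BMI1 (PCGF4) is a PCGF subunit of canonical PRC1 and a known repressor of the Cdkn2a locus. It had 12.8, 10.3 and 12.3 TPM in SAHA, 14.3, 15.2 and 13.5 in VPA, 8.88, 12.3 and 11.1 in JQ1, and 36.5, 24.5 and 25.8 in DMSO. All 9 treated libraries lay below all DMSO libraries, of which replicate 1 was the highest. The log2 change was −1.21 with SAHA (SE 0.176, adjusted p = 0.00267), −0.95 with VPA (adjusted p = 0.0127) and −1.34 with JQ1 (adjusted p = 0.000140). Each call held when any single library was left out. For VPA the log2 change then lay between −1.05 and −0.77, with adjusted p up to 0.0497. In a fit of VPA and DMSO alone the VPA call was lost (adjusted p = 0.0595). JQ1 and VPA differed by a log2 change of −0.39 that did not pass (adjusted p = 0.113).

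The other 5 PCGF genes, whose products define further forms of PRC1, passed in no comparison. Over all libraries Pcgf2 spanned 6.96 to 22.4 TPM, Pcgf3 4.74 to 9.03, Pcgf5 17.6 to 35.8 and Pcgf6 6.57 to 11.6. Pcgf1 was listed at 0 in 6 libraries, among them all 3 of JQ1, and reached 2.13 TPM at most. Bmi1 accounted for 20.0, 15.0 and 17.0% of the summed TPM of the 6 PCGF genes in SAHA, 20.5, 22.8 and 15.4% in VPA, 14.3, 18.9 and 20.0% in JQ1, and 39.0, 31.3 and 32.3% in DMSO. The Bmi1 share was thus lower in every treated library than in every DMSO library.

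Of the CBX subunits, which bind methylated H3 lysine 27, Cbx7 and Cbx8 rose with JQ1. Cbx7 was listed at 1.30, 1.74 and 0 TPM in SAHA, 0.52, 0.59 and 1.24 in VPA, 3.27, 3.13 and 3.25 in JQ1, and 0.88, 0 and 0.19 in DMSO. Cbx8 had 0.90, 0.60 and 1.92 TPM in SAHA, 1.87, 3.02 and 3.0 in VPA, 3.56, 3.57 and 3.91 in JQ1, and 1.42, 1.44 and 1.05 in DMSO. For both genes all JQ1 libraries lay above the other 9. The log2 change with JQ1 was 1.69 for Cbx7 (SE 0.389, adjusted p = 0.00600) and 1.03 for Cbx8 (SE 0.261, adjusted p = 0.0105), on a scale that understates changes of genes this low. Against VPA, Cbx7 was higher by 1.26 (adjusted p = 0.0271), a call lost at a pseudocount of 0.1 (adjusted p = 0.197) and whenever JQ1 replicate 1, 2 or 3 or VPA replicate 1 or 2 was left out (adjusted p up to 0.0796). Cbx8 with VPA against DMSO (log2 0.64) did not pass (adjusted p = 0.219). Exons of Cbx7 overlap Apobec3 on the other strand, and Apobec3 had a log2 change of −0.23 with JQ1 (adjusted p = 0.530). Cbx6 (22.8 to 33.4 TPM) and Cbx2 (0.58 to 2.2 TPM) passed in no comparison, and Cbx6 passed with JQ1 against DMSO once libraries were scaled by median of ratios (log2 0.38, adjusted p = 0.0195). Cbx7 and Cbx8 together made up 18.2, 15.9 and 19.3% of the summed TPM of the 4 CBX genes in JQ1 and 7.61, 5.22 and 4.90% in DMSO.

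Neither RING ligase gene passed. Rnf2 (RING1B), the main H2A ubiquitin ligase, had 10.1, 17.3 and 12.1 TPM in SAHA, 11, 13.95 and 7.72 in VPA, 11.5, 9.20 and 5.05 in JQ1, and 8.95, 6.97 and 7.26 in DMSO. All SAHA libraries lay above all DMSO libraries, with a log2 change of 0.68 (adjusted p = 0.237). Exons of Rnf2 overlap Trmt1l on the other strand, which averaged 7.63 TPM, and the part of this overlap in the values was not tested. Ring1 was listed at 1.48, 0.57 and 0 TPM in SAHA, 0.88, 0.28 and 1.69 in VPA, 1.53, 1.49 and 2.25 in JQ1, and 0.76, 0.88 and 0.27 in DMSO.

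The polyhomeotic genes, whose proteins join PRC1 complexes to each other through SAM domains, split between directions with JQ1. Phc2 had 50.3, 52.9 and 49.9 TPM in SAHA, 46.1, 49.98 and 51.3 in VPA, 27.6, 23.3 and 29.7 in JQ1, and 39.1, 44.2 and 49.7 in DMSO. Phc3 had 3.32, 3.16 and 3.23 TPM in SAHA, 3.61, 3.74 and 3.47 in VPA, 6.24, 6.16 and 5.50 in JQ1, and 3.6, 2.92 and 3.32 in DMSO. The JQ1 libraries were the lowest 3 for Phc2 and the highest 3 for Phc3. Against DMSO the log2 change was −0.70 for Phc2 (SE 0.116, adjusted p = 0.000704) and 0.70 for Phc3 (SE 0.161, adjusted p = 0.00581), and both also passed against VPA. Phc1 had 5.22, 3.69 and 3.94 TPM in SAHA, 6.05, 5.87 and 4.21 in VPA, 3.31, 2.66 and 1.70 in JQ1, and 5.31, 4.21 and 3.77 in DMSO. It was lower with JQ1 than with VPA (log2 −0.86, adjusted p = 0.0152), a call lost without JQ1 replicate 3 or VPA replicate 1 or 2. Against DMSO it did not pass (log2 −0.63, adjusted p = 0.0603). It did pass there without JQ1 replicate 1 (adjusted p = 0.0426) and with replicate numbers as a block (adjusted p = 0.0318).

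Scmh1, another SAM-domain subunit of PRC1, had 61.0, 51.3 and 42.2 TPM in SAHA, 71.7, 68.8 and 86.2 in VPA, 31.8, 23.2 and 18.8 in JQ1, and 68.1, 61.7 and 75.4 in DMSO. The JQ1 libraries were lowest, and the SAHA libraries lay between them and DMSO. The log2 change was −1.47 with JQ1 against DMSO (SE 0.187, adjusted p = 0.000114) and −1.60 against VPA (adjusted p = 6.03e-05), and −0.41 with SAHA (adjusted p = 0.254).

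**Figure D3:**
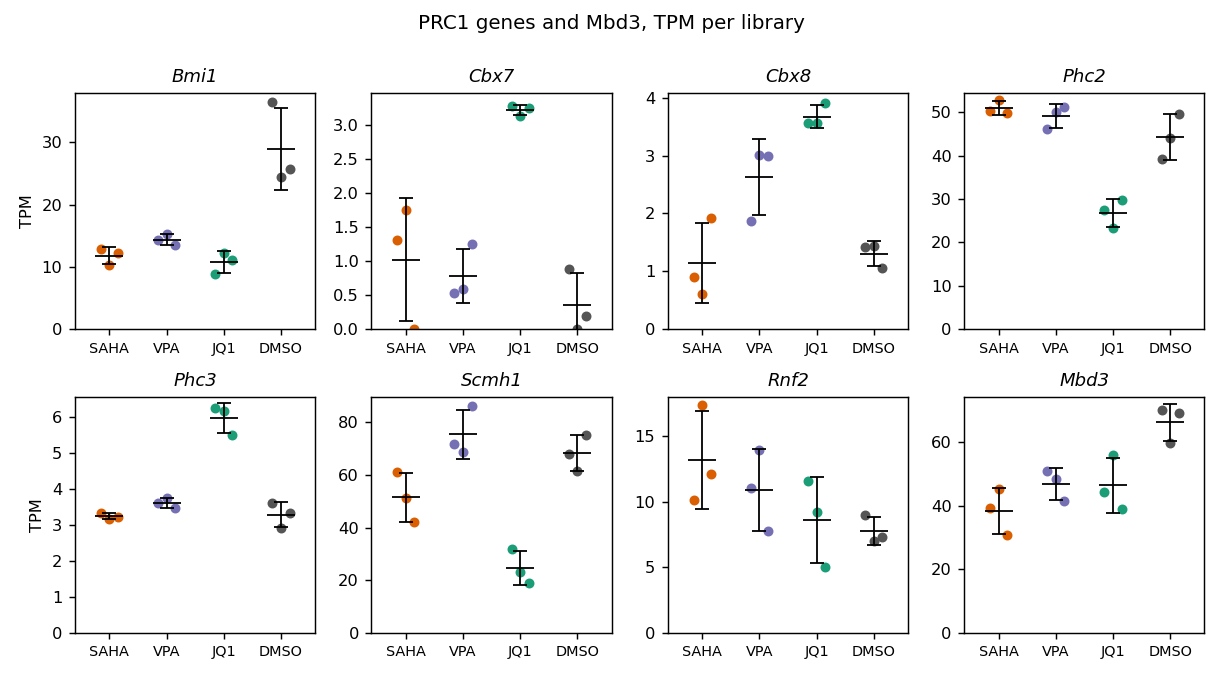
TPM per library (points) of 7 PRC1 genes and Mbd3 in the 4 groups, with the mean and SD of n = 3 as bars (a lower bar below 0 is not drawn), each panel on its own linear axis from 0. Bmi1 and Mbd3 are lower in all 9 treated libraries than in DMSO, Phc2 and Scmh1 are lowest in JQ1, and Cbx7, Cbx8 and Phc3 are highest in JQ1.

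Between SAHA and VPA, 0 of the 35 tested members passed, where 0.452% of all genes did, which does not show that the drugs act alike. At an unadjusted p under 0.05 (limma) 2 members differed, Cbx8 (log2 −0.79, 95% interval −1.37 to −0.22) and Scmh1 (log2 −0.55, −0.96 to −0.14), both lower with SAHA. The drugs were given for 24 h and 36 h, so time and drug cannot be told apart here.

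Partners of the DNA methylation machinery moved in both directions with JQ1, with 5 of 22 tested genes higher and 8 lower, where 12.9% of all genes were higher and 21.0% lower. With any single library left out 5 were higher, and 4 to 7 lower, with 4 lower without JQ1 replicate 2 or DMSO replicate 3. Hells, the chromatin remodeller needed for methylation of repeats, had 98.8, 104 and 108 TPM in SAHA, 133, 99.8 and 105 in VPA, 24.4, 26.9 and 23.6 in JQ1, and 145, 120.5 and 107 in DMSO. Its activator Cdca7 had 3.94, 4.08 and 5.40 TPM in JQ1, against 41.5, 26.7 and 26.5 in DMSO. JQ1 was below every other library for both, with log2 changes of −2.26 for Hells (adjusted p = 2.81e-07) and −2.55 for Cdca7 (adjusted p = 3.75e-05). The stress-response genes Gadd45b and Gadd45g, whose products have been linked to active demethylation, were higher with JQ1 (log2 2.39, adjusted p = 1.20e-06, and 2.19, adjusted p = 5.94e-05). Gadd45b had 48.2, 57.9 and 62.3 TPM in JQ1, against 10.3, 10.7 and 8.72 in DMSO. With SAHA and VPA, 0 of the 22 passed (limma), and 5 and 3 had an unadjusted p under 0.05. Of all genes, 5.19% passed with SAHA and 4.27% with VPA.

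Partners of both Polycomb complexes were tested as well. With JQ1 against DMSO, 12.9% of all tested genes were higher and 21.0% lower. Of 5 PRC2 partners, JQ1 lowered Epop (log2 −0.87) and the histone chaperone Rbbp7 (log2 −0.53). Of 15 PRC1 partners, 4 rose and 4 fell with JQ1, and 2 rose and 3 fell without DMSO replicate 3. L3mbtl2, of a variant PRC1, fell by 1.37 on the log2 scale, the deubiquitinase Usp7 fell by 0.73, and Fbrsl1 (1.00) and Mga (0.84) rose. Of 7 H2A deubiquitinases, Bap1 passed with JQ1 (log2 −1.03, adjusted p = 0.0299), a call lost when any JQ1 library or DMSO replicate 1 or 2 was left out (adjusted p up to 0.117). Epop had an adjusted p of 0.0546 without JQ1 replicate 1 and 0.0631 without DMSO replicate 2, and Mga 0.0508 without DMSO replicate 3.

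Replication genes, given because Dnmt1, Uhrf1 and Ezh2 are known to follow the cell cycle, fell together with JQ1. All 26 of 26 passed as lower than DMSO, where 21.0% of all tested genes did. Their median log2 change was −1.52, against −0.07 over all tested genes. Rfc4 alone lost its call when libraries were left out, without JQ1 replicate 1 or 3 or any 1 of the DMSO libraries (adjusted p up to 0.119). The helicase subunit Mcm3 had 18.7, 14.3 and 12.7 TPM in JQ1 and 80.5, 84.9 and 87.6 in DMSO (log2 −2.41, adjusted p = 5.69e-07). Against VPA 25 of the 26 were lower, where 22.9% of all genes were. SAHA lowered 2, Lig1 (log2 −0.61, adjusted p = 0.0133) and Mcm5 (log2 −0.56, adjusted p = 0.0126), and VPA 0, with 7 at an unadjusted p under 0.05 (limma). Of all genes, 2.10% were lower with SAHA and 1.32% with VPA. The Lig1 call was lost without SAHA replicate 1 or 2 or DMSO replicate 3, and the Mcm5 call without DMSO replicate 2, with adjusted p up to 0.0535. Of the 21 replication genes with a RefSeq promoter, 6 held an E2F word. The part of this fall in the changes of the members was not tested.

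**Figure D4:**
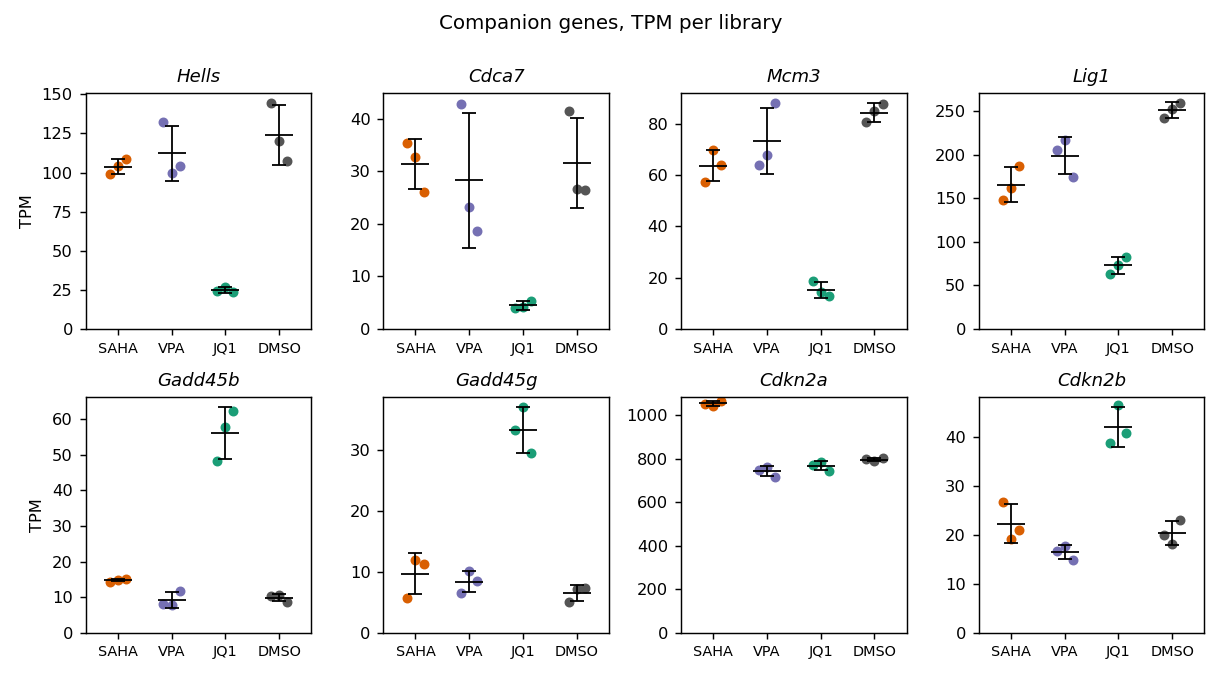
TPM per library (points) of 8 genes outside the list of members, with the mean and SD of n = 3 as bars, each panel on its own linear axis from 0. Hells, Cdca7, Mcm3 and Lig1 are lowest in JQ1, Gadd45b, Gadd45g and Cdkn2b are highest in JQ1, and Cdkn2a stands above 1000 TPM in SAHA only.

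Known targets of these systems were tested where they passed the filter, as 12836 of all 55359 identifiers did. Of 30 Polycomb target genes 11 were tested, and with JQ1 they moved in both directions. Against DMSO 2 of the 11 were higher and 3 lower, where 12.9% of all genes were higher and 21.0% lower. JQ1 raised the CDK inhibitor Cdkn2b (log2 1.01, adjusted p = 0.000297) and lowered 3, Ccnd2 (log2 −1.0), Nkx2-5 (log2 −0.89) and Hoxc10 (log2 −0.37). The Hoxc10 call was lost without JQ1 replicate 2 or 3 or DMSO replicate 1 or 3 (adjusted p up to 0.131). Cdkn2a, which BMI1 is known to repress, had 1052, 1042 and 1064 TPM in SAHA, 749, 759 and 717 in VPA, 772, 784 and 743 in JQ1, and 799, 787 and 801 in DMSO. It was higher with SAHA than DMSO by a log2 change of 0.40 (SE 0.0370, adjusted p = 0.000212). The VPA and JQ1 libraries, in which Bmi1 was also lower, lay below the DMSO range, but Cdkn2a passed against DMSO with neither drug. Under median-of-ratios scaling Cdkn2a was lower with VPA than DMSO (log2 −0.18, adjusted p = 0.0193, limma). JQ1 was then higher than VPA (log2 0.24, adjusted p = 0.000473). The part of Bmi1 in these levels was not tested. Of 20 germline genes, many of which DNA methylation is known to silence, 2 passed the filter and 0 passed the test against DMSO (limma), with 1 at an unadjusted p under 0.05 in JQ1. Of 23 imprinted genes 8 were tested, and JQ1 raised Impact (log2 1.62), Igf2r (log2 0.97) and Gnas (log2 0.42). That made 3 of the 8 higher and 0 lower, beside the same 12.9% and 21.0% of all genes. Igf2r also passed with VPA (log2 0.56, adjusted p = 0.0454), a call lost whenever any single library was left out (adjusted p up to 0.137).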

How the data were processed

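Expression was measured in 12 ISOS-1 libraries (QuantSeq 3′ FWD kit, per the labels' protocols). The authors deposited 1 matrix of TPM values for 55359 identifiers and 12 columns. Named without roles in the submitters' processing notes are mm39, edgeR, RSEM, STAR and bcl2fastq 2.17. Symbols came from the matrix or, for 25870 identifiers without one, from GENCODE M21 names by ID. A gene was tested if 3 or more libraries reached 1 TPM. Its log2(TPM + 1) values were fitted with limma 3.58.1 under R 4.3.3 as 4 group means over all 12 libraries, with a moderated variance that follows the mean level and 8 residual degrees of freedom. Tests were two-sided, with Benjamini-Hochberg adjustment over 12836 genes, and an adjusted p under 0.05 counted as a change. The method was tested on simulated data. Intervals are 95% from limma.

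The members and lists were chosen with earlier results of these data known. Members called in any comparison and the core enzymes are given per library, the others by range, and up to 4 called genes per companion list. Some genes that the rule chose are not reported here. Usp7 and Hoxc10 were named after their values were seen. Other pseudocounts, filters, scalings, 2-group fits, a replicate block and leaving out each library were tried. The same alternatives were run for the companion lists, chosen after seeing the data. Promoters came from RefSeq on GRCm38.p6, another build than the files', so no coordinates of the files were used. Overlapping exons came from GENCODE M21.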

Additional observations from a re-analysis of the deposited data

How the results depend on the processing

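Called members kept their call under every alternative in which they were tested in 1 of 2 cases for SAHA, 0 of 1 for VPA, 11 of 13 for JQ1 against DMSO and 10 of 13 for JQ1 against VPA, and 3 of the 11 and 2 of the 10 were too low to be tested at a filter of 5 TPM. With only the 2 groups fitted, which leaves fewer samples to estimate the spread, 1 member was called with SAHA and 0 with VPA against DMSO. Without single libraries, the members called ranged over 1 to 2 (SAHA), 1 to 1 (VPA), 11 to 14 (JQ1), 0 to 0 (SAHA against VPA) and 11 to 14 (JQ1 against VPA). Median-of-ratios scaling moved the median change of all genes in JQ1 against VPA to 0.00, against −0.14 as deposited. For JQ1 against DMSO it gave 4 higher and 8 lower of the 35 tested members. Of all 12797 genes tested under that scaling, 2060 were higher and 2299 lower in the same comparison. As deposited, 1657 were higher and 2690 lower of 12836. The calls of Eed (adjusted p = 0.0627) and Mbd3 (adjusted p = 0.0755) were lost under median-of-ratios scaling. The cause was not tested. Counts over all genes were more dependent on the fit. Against DMSO, 666 genes with SAHA became 369 and 548 with VPA became 243 in 2-group fits. SAHA against VPA gave 96 genes with median-of-ratios scaling, 19 in the 2-group fit and 24 with the block, against 58. Higher and lower genes were 271 and 300 with VPA against DMSO under median-of-ratios scaling, 379 and 169 as deposited, and 1925 and 2253, as against 1319 and 2945, for JQ1 against VPA. Libraries with the same replicate number showed no shared deviation from their group means (correlation −0.045 to 0.079 over 18 pairs). Pairs with other numbers gave −0.067 to 0.056 over 36 pairs. These values cannot show whether same-numbered libraries were prepared together. With the replicate block, which added Phc1 with JQ1 against DMSO (adjusted p = 0.0318), 2, 1, 14, 0 and 13 members were called in SAHA, VPA and JQ1 against DMSO, SAHA against VPA and JQ1 against VPA. TPM keeps no depth, so genes near 1 TPM rest on an unknown number of reads.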
